A study of Mus musculus with 27 samples.

Results

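The insulin-like growth factor (IGF) axis was followed in NIH/3T3 cells, an established line of mouse embryonic fibroblasts, through the probe sets whose platform annotation names Igf1, Igf2, Igf1r, Igf2r or one of Igfbp2 to Igfbp7. There were 14 such probe sets for 9 genes among 12488 probe sets on the array. Igfbp5 had no probe set of its own, because the only one that names it also names another gene, and it was not analysed here. By their mean log2 value 9 of the 14 probe sets, for 7 genes, lay above the limit of 6.77 used for testing. The other 5, which include both probe sets of Igfbp3 and the only one of Igfbp7, are described by their values alone.

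The series holds 27 arrays of total RNA, 1 per flask, from 3 experiments that the labels call biological replicates. All groups came from the same line without any genetic change. Before the experiment the fetal bovine serum in the medium was lowered from 20% to 10% and then to 5%. Every flask then spent 2 h in serum-free medium with 15 µM forskolin, which switches on adenylyl cyclase and so increases cyclic AMP, and was rinsed and kept without serum. The end of this pulse is 0 h, and harvests at intervals of 6 h until 48 h gave 9 time points with 3 arrays each. The series asked which transcripts of these cells follow a circadian course. Flasks without forskolin and flasks kept in serum were not analysed here, so the pulse, its end and the withdrawal of serum cannot be told apart. All changes from 0 h share the same 3 arrays at 0 h, and in RNA of whole flasks a change in the number of cells that express a gene and a change in RNA per cell cannot be told apart.

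IGF1 and IGF2 are secreted peptides that drive growth and survival, and both act through the receptor tyrosine kinase encoded by Igf1r. The Igf2r product, also known as the cation-independent mannose 6-phosphate receptor, has no kinase. It carries IGF2 to lysosomes for degradation and sorts lysosomal enzymes. The IGF-binding proteins hold the peptides outside the cell and are cut by proteases that release them. Igf2 and Igf2r are imprinted in the mouse, Igf2 being expressed from the paternal and Igf2r from the maternal copy in most tissues. Fibroblasts are a classical source of IGFs and of their binding proteins.

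Values are log2(intensity + 12.1) after quantile normalization, so 1 unit is a doubling on that scale, and a change of a dim probe set is understated. Changes are given ± SE from limma, with n = 3 arrays per time point and p-values adjusted by the Benjamini-Hochberg method over 7453 probe sets. Where the experiment number entered the fit as a block, this is said. Levels of different probe sets cannot be compared, since each has its own binding strength.

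The label of the cells was checked against marker lists. All 10 fibroblast markers measured lay above the limit, with a mean over the list from 12.07 to 12.38 on the 27 arrays. Above the limit were 1 of 7 epithelial, 2 of 7 endothelial, 2 of 6 haematopoietic, 4 of 6 muscle, 1 of 4 adipocyte and 4 of 6 neural markers, with list means from 5.24 to 7.94. Of all 12422 non-control probe sets 7453 lay above it, so such a count alone does not show that a lineage is expressed. The list means come from different probe sets, so they do not measure 1 cell type against another. The array medians of the deposited intensities ranged from 166.8 to 200.6. An earlier account of these data set the experiment 1 arrays at 18 h and 30 h apart from the rest, and each count of members was also taken without them, which altered the count over time alone.

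The transcripts that rose were those of Igf2, Igf2r, Igf1r and Igfbp4. Without the block Igf1r was called at 48 h alone (adjusted p = 0.0499 in limma). Igfbp4 was then called at 24 h alone, on its brightest probe set only, and lost that call without any 1 experiment. Igf1, Igfbp2 and Igfbp6 did not pass any test without the block on all arrays. Of the 9 probe sets tested, 2 varied over the 9 time points, against 7.30% of all probe sets, namely those of Igf2 and Igf2r. At 24 h 3 were higher than at 0 h, against 4.08% of all probe sets, and none was lower, against 2.84%. At 48 h 3 were higher, against 4.67%, and none was lower, against 3.23%. The median change of the 9 was 0.06 at 24 h and 0.16 at 48 h, beside 0.01 and 0 over all probe sets tested. With the experiment as a block 3 varied over time, against 26.4% of all probe sets. In that fit 4 were higher at 24 h, against 10.6%, and none was lower, against 7.96%. At 48 h it had 3 higher, against 10.7%, and 1 lower, against 9.07%. Groups that did not overlap with 0 h and lay above it were seen for 12.4% of all probe sets at 6 h, 12.0% at 24 h and 11.7% at 48 h, and groups wholly below it for 10.1% at 48 h.

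The sequences before the transcription starts of the 4 genes that rose are shown because their transcripts moved in the same direction and because the pulse acts through cyclic AMP. They are the 250 bases upstream of each annotated start, from RefSeq on build GRCm38.p6, printed on the strand of the gene. Igf2 has 4 starts in this table and the one nearest its 3′ end is shown. Which start was used in these cells was not tested. Capitals mark 3 motifs on either strand, which may overlap: CACGTG, the E-box bound by CLOCK and its partner; TGACG, the core of the cyclic AMP response element; and GGGCGG, the GC box.
Igf2r, chr17:12769707-12769956, minus strand: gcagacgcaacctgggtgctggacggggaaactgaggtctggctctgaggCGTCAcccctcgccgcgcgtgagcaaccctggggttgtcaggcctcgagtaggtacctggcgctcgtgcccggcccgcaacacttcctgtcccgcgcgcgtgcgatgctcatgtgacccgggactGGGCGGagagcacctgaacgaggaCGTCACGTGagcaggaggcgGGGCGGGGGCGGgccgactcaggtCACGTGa
Igf2, chr7:142657497-142657746, minus strand: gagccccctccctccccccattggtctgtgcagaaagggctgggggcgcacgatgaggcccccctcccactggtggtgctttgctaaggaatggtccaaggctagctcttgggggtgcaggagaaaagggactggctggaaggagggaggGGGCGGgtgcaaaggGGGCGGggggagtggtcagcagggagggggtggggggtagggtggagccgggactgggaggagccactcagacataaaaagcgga
Igf1r, chr7:67952007-67952256, plus strand: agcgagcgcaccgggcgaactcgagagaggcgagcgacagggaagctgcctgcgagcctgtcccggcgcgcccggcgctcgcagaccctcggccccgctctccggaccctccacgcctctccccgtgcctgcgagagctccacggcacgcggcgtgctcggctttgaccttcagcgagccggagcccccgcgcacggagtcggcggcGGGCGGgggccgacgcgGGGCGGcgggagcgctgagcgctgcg
Igfbp4, chr11:99040994-99041243, plus strand: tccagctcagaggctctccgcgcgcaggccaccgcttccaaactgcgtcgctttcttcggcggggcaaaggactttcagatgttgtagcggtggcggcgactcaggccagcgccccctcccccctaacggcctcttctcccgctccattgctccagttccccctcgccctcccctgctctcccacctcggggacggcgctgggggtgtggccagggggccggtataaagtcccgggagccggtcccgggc

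The Igf2r window held 2 E-boxes, which began 48 and 7 bases before the start, and the first of them overlapped a TGACG core read on the other strand. It held 2 TGACG cores and 3 GC boxes in all. The windows of Igf2 and Igf1r held 2 GC boxes each and neither of the other motifs, and the Igfbp4 window held none of the 3. Among 32851 promoter windows of the same length, 6.02% held an E-box, 17.8% a TGACG core and 32.7% a GC box. The full palindrome TGACGTCA, found in 1.55% of windows, and GTAAACA, a FoxO site found in 3.17%, were in none of the 14 windows of the 10 genes searched, Igfbp5 included. Outside the 4 windows shown, an E-box was found in 1 of the 2 Igfbp2 windows and a TGACG core in 1 further Igf2 window. That Igfbp2 window also held 3 GC boxes, that Igf2 window 1, and the window of Igfbp7 held 4. A match is a run of letters and not a shown binding site.

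Igf2, the growth factor of fetal tissues, rose on its bright probe set. In experiments 1, 2 and 3 its log2 value was 14.26, 13.43 and 13.89 at 0 h, 14.94, 14.60 and 14.75 at 24 h, and 14.84, 14.76 and 14.94 at 48 h. In deposited intensities this was 17296.6, 11337.7 and 14174.2 at 0 h and 27319.7, 27263.8 and 28954 at 48 h. Every array at 24 h and at 48 h lay above every array at 0 h, and the spread between experiments narrowed from an SD of 0.42 at 0 h to 0.09 at 48 h.

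After quantile normalization the mean of Igf2 climbed until 18 h and then levelled. It started from 13.86, passed 14.15 at 6 h and 14.37 at 12 h, reached 14.71 at 18 h, and stayed between 14.75 and 14.85 from 24 h on. Deposited intensities from 18 h on ran from 25093.5 to 29702.3 in experiment 1 and from 23357.7 to 29172.9 in experiment 2. Those of experiment 3 ran from 24084.4 at 24 h to 39131.2 at 36 h, where the normalized values were 14.75 and 14.98. The levelling is therefore stated for the normalized values alone. At 6 h the change was 0.29 ± 0.15 (adjusted p = 0.341), and from 12 h on, at 7 of the 8 later times, all 3 arrays lay above those at 0 h. The change reached 0.91 ± 0.15 at 24 h (adjusted p = 4.78e-04), a 1.87-fold rise, and 0.99 ± 0.15 at 48 h (adjusted p = 1.37e-04), a 1.99-fold rise. It was positive in 3 of 3 experiments at each of these times. Leaving out 1 experiment at a time gave 0.76 to 1.03 at 24 h and 0.81 to 1.21 at 48 h, and the calls at both times were kept.

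The test over all times gave Igf2 an adjusted p = 2.84e-04 in limma. Along a line from 6 h to 48 h it rose by 0.33 ± 0.07 per day (adjusted p = 0.00871). Of all probe sets 2.83% had a rising and 3.30% a falling trend, and Igf2 was the only 1 of the 9 called. The change from 24 h to 48 h was 0.08 ± 0.15 (adjusted p = 1.00). The trend was not called without experiment 2 (adjusted p = 0.103), without experiment 3 (adjusted p = 0.0770) or with each array centred on its median (adjusted p = 0.0692). The test over all times was not passed without experiment 3 (adjusted p = 0.225).

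A further, dim Igf2 probe set did not show this. Its log2 values ran from 4.00 to 5.35 over all arrays, or 4.4 to 31.2 in deposited intensity, below the limit for testing. Its changes from 0 h were 0.06 at 6 h, 0 at 24 h and 0.29 at 48 h. The Igf2 result rests on the bright probe set alone.

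**Figure D1:**
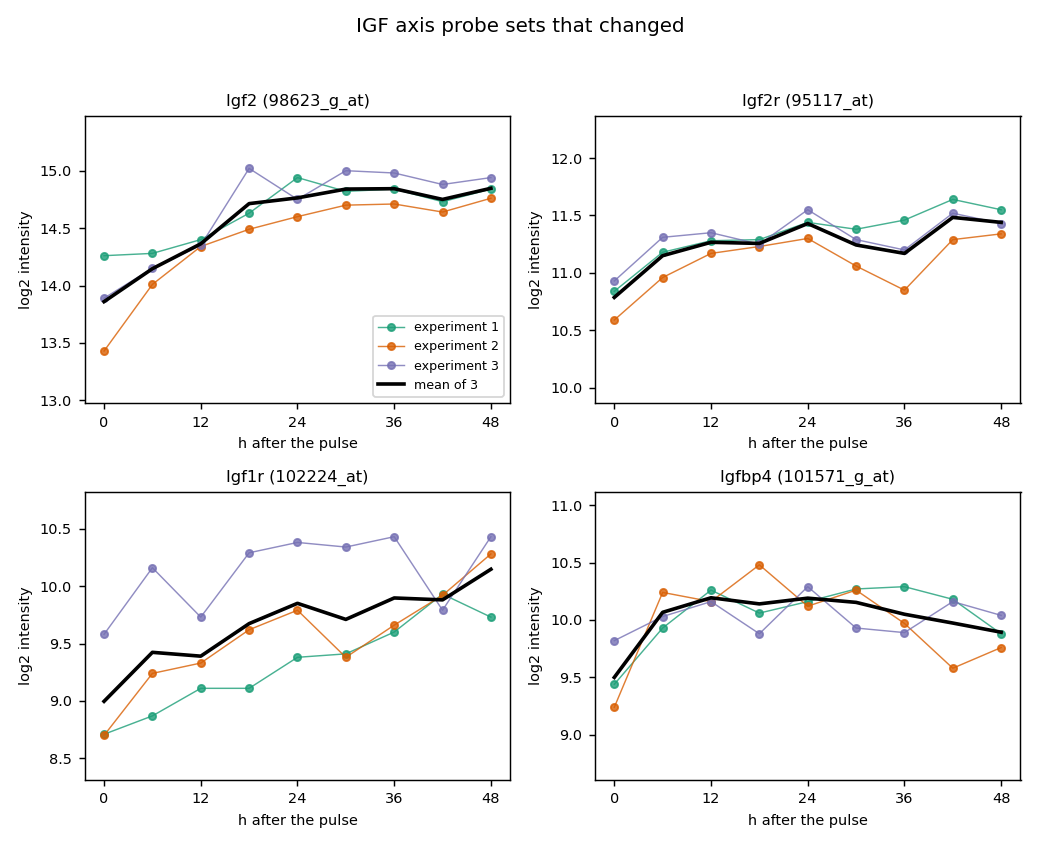
Log2 intensity after quantile normalization (vertical axis) against hours after the forskolin pulse (horizontal axis) for the probe sets of Igf2, Igf2r, Igf1r and Igfbp4. Coloured points are the arrays of experiments 1 to 3 and the black line is their mean: Igf2 climbed from 13.86 to 14.71 by 18 h and then stayed level, the Igf2r mean went from 10.79 at 0 h to 11.15 at 6 h, and the Igf1r arrays of experiment 3 lay highest at most times.

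Igf2r, with a single probe set, was higher by nearly the same amount in each experiment already at 6 h. Its log2 value at 0 h was 10.84, 10.59 and 10.93 in experiments 1, 2 and 3, and at 6 h it was 11.18, 10.96 and 11.31. At 24 h it was 11.44, 11.30 and 11.55, and at 48 h it was 11.55, 11.34 and 11.43. The arrays at 6 h, 24 h and 48 h all lay above those at 0 h, and this held at 7 of the 8 later times, the exception being 36 h, where experiment 2 read 10.85.

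The change of Igf2r at 6 h was 0.34, 0.38 and 0.38 in the 3 experiments, a mean of 0.37 ± 0.02 (SD, n = 3). It missed the threshold without the block (adjusted p = 0.152) and passed with it, at 0.37 ± 0.09 (adjusted p = 0.00713). With the block 9.97% of all probe sets were called higher at 6 h and 6.74% lower, and of the 9 probe sets of the axis 2 were higher, Igf2r and Igfbp4. Without the block none of the 9 was called at 6 h, against 3.70% higher and 2.39% lower among all probe sets, and 2 had an unadjusted p below 0.05 in limma, against 17.4%. At 24 h Igf2r had risen by 0.64 ± 0.14 (adjusted p = 0.00604), or 1.56-fold, and at 48 h by 0.65 ± 0.14 (adjusted p = 0.00473). Without experiment 3 neither call was kept (adjusted p = 0.180 and 0.112), although the changes were then 0.65 and 0.73.

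Between 24 h and 48 h Igf2r differed by 0.01 ± 0.14, and its linear trend from 6 h on was 0.07 ± 0.07 per day (adjusted p = 0.666). Over all times it had an adjusted p = 0.0413 in limma. That call was not kept when any 1 experiment was left out (adjusted p from 0.199 to 0.777), without the experiment 1 arrays at 18 h and 30 h (adjusted p = 0.0560), or under 3 other settings given in the closing section. With the block its adjusted p = 1.19e-04.

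Igf1r, which encodes the signalling receptor, was higher at 48 h and differed in level between experiments. In experiments 1, 2 and 3 it read 8.71, 8.70 and 9.58 at 0 h, 9.38, 9.79 and 10.38 at 24 h, and 9.73, 10.28 and 10.43 at 48 h. The arrays of 24 h and 0 h overlapped, since experiment 3 read higher at 0 h than experiment 1 at 24 h, and those of 48 h and 0 h did not. Within each experiment the change was positive, at 0.67, 1.08 and 0.80 by 24 h and 1.02, 1.58 and 0.85 by 48 h.

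Without the block the rise of Igf1r was 0.85 ± 0.36 at 24 h (adjusted p = 0.182) and 1.15 ± 0.36 at 48 h (adjusted p = 0.0499), or 2.22-fold. The call at 48 h stood at the threshold, and it was not kept without experiment 1 (adjusted p = 0.0941) or experiment 2 (adjusted p = 0.495). With the block the same changes were 0.85 ± 0.19 (adjusted p = 0.00206) and 1.15 ± 0.19 (adjusted p = 8.59e-05). The block also gave it a call over all times (adjusted p = 0.00170) and a trend of 0.34 ± 0.09 per day (adjusted p = 0.00887), so that 2 of the 9 had a rising trend in that fit, against 8.05% rising and 9.02% falling among all probe sets. Without the block these had adjusted p = 0.471 and 0.230.

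Of the binding proteins, Igfbp4, whose product holds IGFs away from their receptor, was higher at 24 h on its brightest probe set. This read 9.44, 9.24 and 9.82 at 0 h, 9.93, 10.24 and 10.03 at 6 h, 10.16, 10.12 and 10.29 at 24 h, and 9.88, 9.76 and 10.04 at 48 h. All arrays at 6 h and 24 h lay above those at 0 h, and at 48 h the groups overlapped. The mean was highest between 12 h and 30 h, at 10.14 to 10.19.

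The change of Igfbp4 was 0.57 ± 0.18 at 6 h (adjusted p = 0.0679, and 0.0271 with the block), 0.69 ± 0.18 at 24 h (adjusted p = 0.0206), or 1.62-fold, and 0.39 ± 0.18 at 48 h (adjusted p = 0.228). The change at 6 h was 0.62, 0.35 and 0.74 without experiments 1, 2 and 3. The call at 24 h was lost without any 1 of experiments 1, 2 and 3 (adjusted p = 0.132, 0.134 and 0.105). Each experiment was lower at 48 h than at 24 h, by 0.28, 0.36 and 0.25, yet this change of −0.30 ± 0.18 did not pass (adjusted p = 1.00, and 0.549 with the block). The other 2 probe sets of the gene did not show the rise. The second differed from 0 h by 0.17 ± 0.43 at 6 h and −0.21 ± 0.43 at 24 h, and read 8.04, 8.62 and 8.57 at 0 h and 7.09, 8.90 and 8.61 at 24 h. The third lay between 4.42 and 6.83 and was not tested.

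**Figure D2:**
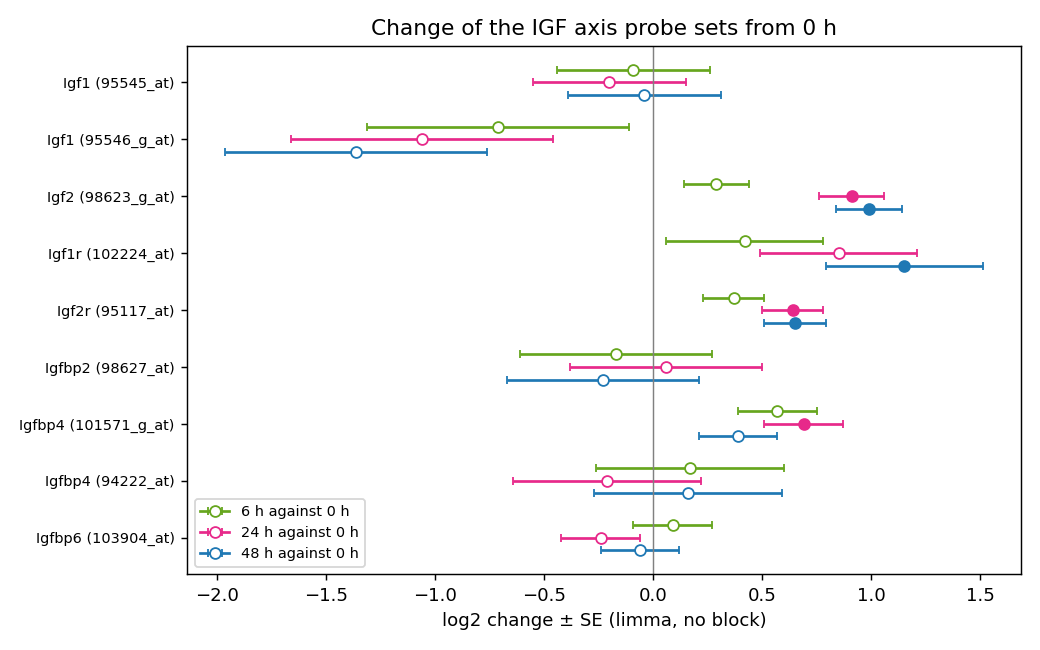
Log2 change from 0 h (horizontal axis) of the 9 tested probe sets at 6 h, 24 h and 48 h, as the limma estimate ± SE without the block. Filled points had an adjusted p below 0.05: Igf2 and Igf2r at 24 h and 48 h, the brightest Igfbp4 probe set at 24 h and Igf1r at 48 h.

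Igf1, whose peptide is the growth hormone-dependent IGF of the circulation and is also made by fibroblasts, gave no call on its brighter probe set. It read 9.64, 10.17 and 10.01 at 0 h, 9.36, 10.27 and 9.59 at 24 h, and 9.52, 10.18 and 9.99 at 48 h. Its changes were −0.09 ± 0.35 at 6 h, −0.20 ± 0.35 at 24 h and −0.04 ± 0.35 at 48 h, with adjusted p from 0.861 to 0.972. The paired changes at 48 h were small in each experiment, at −0.12, 0.01 and −0.02.

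The dimmer Igf1 probe set was lower at 48 h than at 0 h in 3 of 3 experiments. It read 8.12, 8.04 and 7.20 at 0 h and 6.57, 6.59 and 6.13 at 48 h, so that the groups did not overlap. The change was −1.36 ± 0.60 (adjusted p = 0.204), and −1.36 ± 0.47 with the block (adjusted p = 0.0461). With a mean of 6.83 this probe set lay just inside the limit for testing, whereas Igfbp7 with 6.74 lay just outside it. The trends of the brighter and the dimmer probe set from 6 h to 48 h were 0.01 ± 0.16 and −0.53 ± 0.28 per day, and neither was called. The trend of the dimmer one was −0.98 without experiment 1, −0.48 without experiment 2 and −0.12 without experiment 3, and its change at 24 h, −1.06 ± 0.60 on all arrays, ran from −1.44 to −0.50 when 1 experiment was left out.

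Igfbp6, whose product prefers IGF2 over IGF1, had a single probe set without a call. It read 12.17, 12.48 and 12.30 at 0 h, 12.04, 12.02 and 12.17 at 24 h, and 12.60, 11.95 and 12.22 at 48 h. Its changes were 0.09 ± 0.18 at 6 h, −0.24 ± 0.18 at 24 h and −0.06 ± 0.18 at 48 h, and none was called. Without experiment 1 the trend was −0.34 ± 0.10 per day (adjusted p = 0.0385), against −0.14 ± 0.10 with all arrays (adjusted p = 0.50), and the test over time was passed (adjusted p = 0.0364). Without experiment 2 the trend was −0.01 (adjusted p = 0.979) and without experiment 3 it was −0.07 (adjusted p = 0.920).

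Igfbp2, a binding protein of fetal tissues, had a median of 7.22 over the 27 arrays with a lowest value of 5.26, in experiment 1 at 42 h. Its changes from 0 h were −0.17 at 6 h, 0.06 at 24 h and −0.23 at 48 h, each with an SE of 0.44, and its mean was highest at 12 h, with 7.33, and lowest at 42 h, with 6.55. Igfbp7, whose product binds IGFs weakly, ran from 5.17 to 8.26, with an SD of 0.98 between arrays of the same time. The Igfbp3 probe sets, for the main carrier of IGFs in blood, ran from 4.77 to 5.85 and from 4.30 to 5.60 and never reached the limit of 6.77. Without detection calls, these values cannot be told from background.

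**Figure D3:**
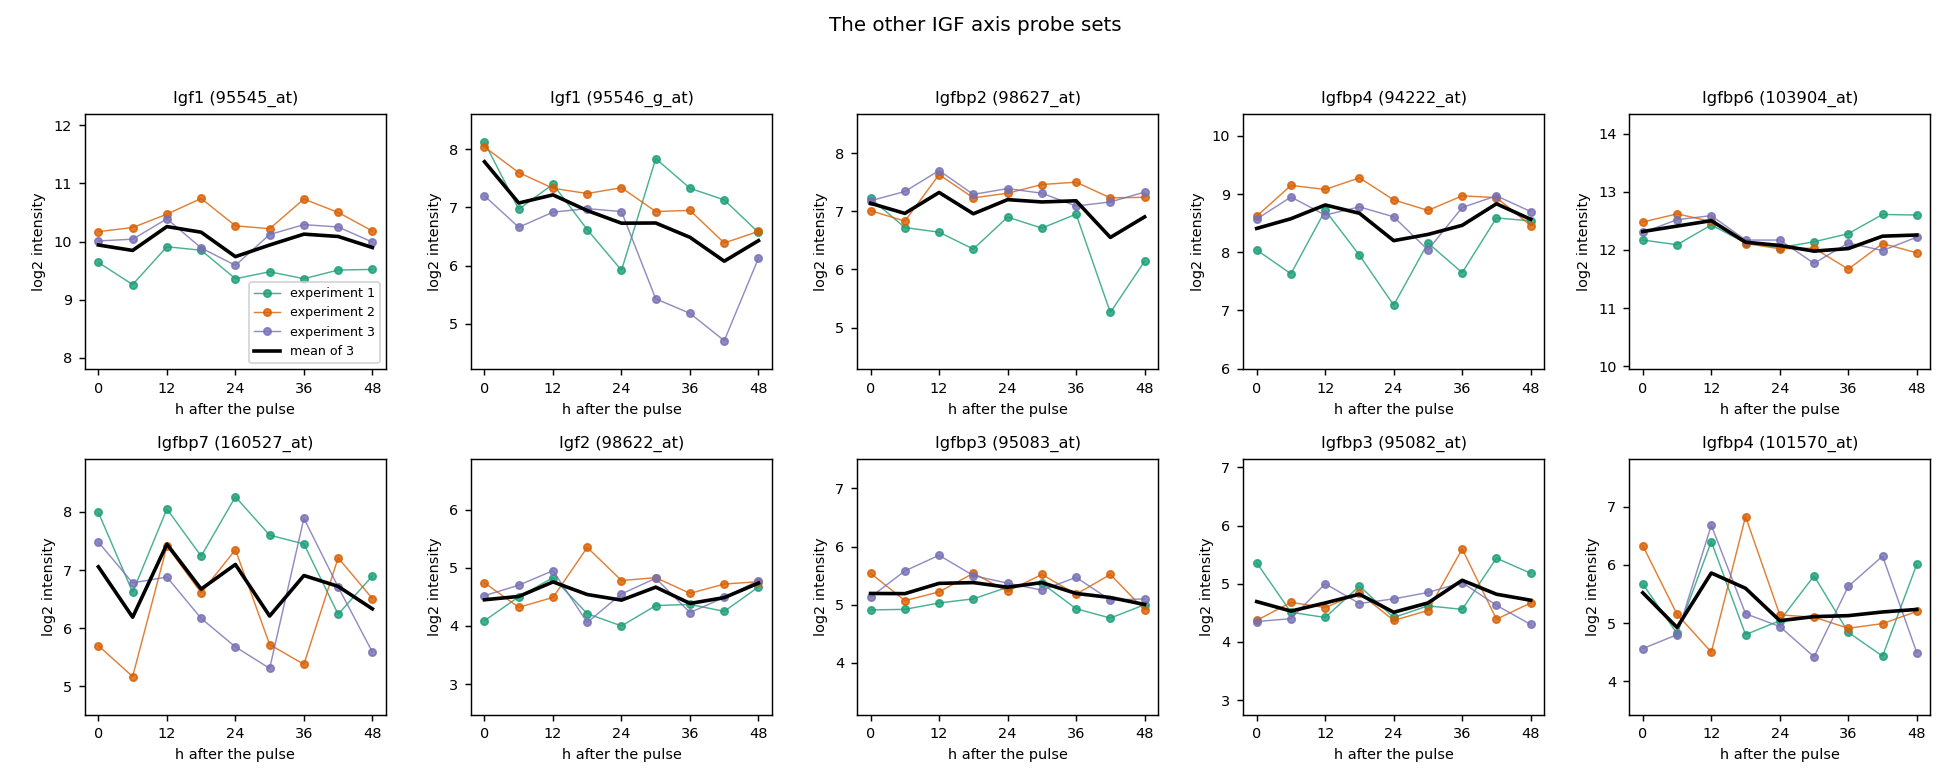
Log2 intensity (vertical axis, spanning the same number of units in each panel) against hours after the pulse (horizontal axis) for the other 10 probe sets of the axis. Points are the arrays of experiments 1 to 3 and the black line is their mean: Igfbp3 and the dim Igf2 probe set stayed below 6, and the dim Igf1 probe set went from a mean of 7.79 at 0 h to 6.43 at 48 h.

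No probe set of the axis passed the test of a 24 h rhythm from 6 h to 48 h, and none did among all 7453. Unadjusted p-values below 0.05 in limma numbered 0 of the 9, against 3.33% of all probe sets, and 2 of the 9 with the block, against 10.5%. The largest fitted amplitude was 0.22, for the brighter Igf1 probe set whose fitted course peaked at 14.1 h (adjusted p = 1.00, and 0.242 with the block). Igf2r, whose promoter window holds the E-boxes printed above, was fitted with an amplitude of 0.11 and a peak at 21.5 h (adjusted p = 1.00, and 0.401 with the block). Igf2 had an amplitude of 0.04. A comparison 1 day apart, 48 h against 24 h, called none of the 9 either, against 0.0268% of all probe sets, and none had an unadjusted p below 0.05, against 4.52%. With the block none was called in this comparison either, against 0.577%.

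The members that rose were compared with each other over the arrays. With each experiment's mean removed, Igf2 and Igf1r correlated at r = 0.768 over the 27 arrays, Igf2r and Igf1r at 0.755, Igf2 and Igf2r at 0.656 and Igf2r and Igfbp4 at 0.565. Igfbp4 had lower values with Igf2, at 0.362, and with Igf1r, at 0.255. The brighter Igf1 probe set had r of 0.0503 with Igf2, Igfbp6 had −0.559 and the dimmer Igf1 probe set −0.611. Igfbp4 stands here for its brightest probe set, the only one of the gene that rose. Its second probe set had r of 0.154 with Igf2r, −0.0907 with Igf2 and 0.0601 with Igf1r. All these r values are descriptions, since the arrays share their experiments and the 4 probe sets compared were chosen for their rise from 0 h. Over all genes tested, the courses most like that of Igf2 were those of Apod (r = 0.938), which encodes a secreted lipid carrier, Fbln1 (0.930), for the matrix protein fibulin 1, and Ext1 (0.910), an enzyme of heparan sulfate synthesis. Apod rose by 2.32 ± 0.68 at 24 h (adjusted p = 0.0374), Fbln1 by 1.03 ± 0.22 (adjusted p = 0.00374) and Ext1 by 0.87 ± 0.19 (adjusted p = 0.00504). They were picked by their likeness to Igf2 on arrays that include 0 h, so their rise from 0 h is no separate support. The courses most like that of Igf2r were those of Runx1t1 (0.877), a transcriptional corepressor, Phldb2 (0.866) and Kitl (0.853), the ligand of the receptor KIT.

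The other genes of the pathway were taken from lists chosen with the members. Of 31 tested genes of IGF receptor signalling, 1 rose and 2 fell at 6 h and at 24 h, and 2 rose and 2 fell at 48 h. Of all 5643 genes 6.66% were called at 6 h, 7.28% at 24 h and 8.28% at 48 h, and the median change of the list at 24 h was 0.01 beside 0.02 over all genes. With the block 1 rose and 3 fell at 6 h, and 2 rose and 4 fell at 24 h and at 48 h. Of all probe sets the block called 9.97% higher and 6.74% lower at 6 h. The shares were 10.6% and 7.96% at 24 h, and 10.7% and 9.07% at 48 h. The further gene lower at all 3 times with the block was Map2k2, a kinase that activates ERK, with changes of −0.74, −0.67 and −0.67 (adjusted p = 0.00459, 0.00817 and 0.00828 with the block, and 0.174, 0.218 and 0.214 without it). The genes of the insulin receptor, Insr, and of the adaptors Irs1, Irs2 and Irs3 were among 6 that lay below the limit. Foxo3, a transcription factor that AKT keeps out of the nucleus, read 9.57, 9.67 and 9.92 at 0 h and 10.51, 10.52 and 10.72 at 6 h, and was still at 10.68, 10.56 and 10.86 at 48 h. Its rise was 0.87 ± 0.21 at 6 h (adjusted p = 0.0136) and 0.98 ± 0.21 at 48 h (adjusted p = 0.00455). It kept its size, from 0.84 to 1.02 over both times, when 1 experiment was left out. The calls were then lost at 6 h without any 1 of the experiments (adjusted p from 0.0574 to 0.144) and at 48 h without experiment 1 (0.0803) or 3 (0.0514).

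The genes of this list that fell without the block were Socs3, Socs2 and Ptpn1. Socs3, a feedback inhibitor of cytokine and insulin receptors, read 10.59, 9.82 and 9.72 at 0 h and 8.04, 8.60 and 8.92 at 6 h, a change of −1.53 ± 0.39 (adjusted p = 0.0171). Without experiment 1 that change was −1.04 (adjusted p = 0.132), and its changes of −1.42 ± 0.39 at 24 h and −1.36 ± 0.39 at 48 h were then −0.83 and −0.94, neither of them called. Leaving out any other experiment also ended the calls (adjusted p from 0.0627 to 0.214). Socs2, an inhibitor of growth hormone signalling, fell by 1.24 ± 0.32 at 48 h (adjusted p = 0.0174). Ptpn1, a tyrosine phosphatase of the insulin receptor, fell by 0.64 ± 0.17 at 6 h (adjusted p = 0.0244) and 0.59 ± 0.17 at 24 h (adjusted p = 0.0361). Pik3r2, a regulatory subunit of phosphoinositide 3-kinase, rose by 0.76 ± 0.20 at 48 h (adjusted p = 0.0202). The calls of Socs2, Ptpn1 and Pik3r2 were lost when any 1 experiment was left out, as the adjusted p then lay between 0.0777 and 0.283.

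Ghr, the growth hormone receptor, which controls Igf1 in many tissues, rose at 6 h and stayed high. It read 9.46, 9.72 and 9.49 at 0 h, 10.53, 10.72 and 10.53 at 6 h, and 10.65, 10.63 and 10.50 at 48 h. Its rise was 1.04 ± 0.12 at 6 h (adjusted p = 4.63e-06) and 1.13 ± 0.12 at 24 h (adjusted p = 1.30e-06), and the calls were kept without any 1 experiment. Of 9 tested genes in the list of other IGF family and IGF-binding genes it alone was called at 6 h, 24 h or 48 h without the block. Of all genes 6.66%, 7.28% and 8.28% were called at these times. With the block 2 of the 9 were called at 6 h and at 24 h and 1 at 48 h. Of all probe sets the block called 9.97% higher and 6.74% lower at 6 h. The shares were 10.6% and 7.96% at 24 h, and 10.7% and 9.07% at 48 h. A further 10 genes of that list, with Igfals, Igfbp1, Ccn1 and Ccn2 among them, lay below the limit.

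Of 19 tested genes for IGFBP proteases and their inhibitors, 4 rose and 1 fell at 24 h, against 7.28% of all genes called, and the list median was 0.16 beside 0.02 over all genes. At 6 h 2 rose and 1 fell, against 6.66%, and at 48 h 3 rose and 1 fell, against 8.28%. The list medians were then 0.11 and 0.12, beside 0.01 and 0 over all genes. With the block 3 rose and 1 fell at 6 h, against 9.97% higher and 6.74% lower among all probe sets. At 48 h 3 rose and 3 fell in that fit, against 10.7% and 9.07%. With the block 6 rose and 3 fell at 24 h, against 10.6% higher and 7.96% lower among all probe sets. The further ones that rose were Timp3, for a metalloproteinase inhibitor, by 0.48 (adjusted p = 0.0325 with the block) and C1ra, for a complement protease, by 0.24 (adjusted p = 0.0291 with the block). The further ones that fell were Ctsl, for cathepsin L, by 0.57 (adjusted p = 0.0195 with the block) and Adam9, a membrane-bound protease, by 0.48 (adjusted p = 0.0414 with the block). Mmp14, the membrane-bound matrix metalloproteinase, read 11.68, 11.25 and 11.61 at 0 h and 12.31, 12.45 and 12.52 at 48 h, a rise of 0.91 ± 0.12 (adjusted p = 1.95e-05) that was kept without any 1 experiment. Ctsd, for the lysosomal protease cathepsin D, rose by 0.74 ± 0.18 at 24 h (adjusted p = 0.00963), and Bmp1, a procollagen protease that also cuts IGFBP3, by 0.87 ± 0.26 (adjusted p = 0.0441). Ctsb, for cathepsin B, rose by 0.38 ± 0.11 (adjusted p = 0.0471). The call of Ctsd was lost without experiment 2 (adjusted p = 0.0668) or experiment 3 (0.295), and those of Bmp1 and Ctsb without any 1 experiment. Timp1, an inhibitor of metalloproteinases, fell by 0.58 ± 0.12 at 24 h (adjusted p = 0.00345) and by 0.64 ± 0.12 at 48 h (adjusted p = 0.00120). At 24 h its call was lost without experiment 2 (0.107) or experiment 3 (0.0611), and at 48 h without experiment 2 (0.107). Mmp9, for gelatinase B, rose by 1.08 ± 0.32 at 6 h (adjusted p = 0.0469, and from 0.0683 to 0.452 when 1 experiment was left out). From there it fell by 0.84 ± 0.18 per day (adjusted p = 0.00573, and 0.192 without experiment 3).

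The last list was named for imprinted neighbours of Igf2 and imprinted growth genes. Whether its genes are imprinted in these cells was not tested. Of its 11 tested genes, 2 rose at 24 h and 3 at 48 h and none fell without the block, against 7.28% and 8.28% of all genes called. The list medians were 0.19 and 0.05 beside 0.02 and 0 over all genes. With the block 4 rose at 24 h, and at 48 h 3 rose and 1 fell. Of all probe sets the block called 10.6% higher at 24 h, and 10.7% higher and 9.07% lower at 48 h. The gene that fell was Peg3, a paternally expressed zinc finger gene, by 0.48 (adjusted p = 0.0290 with the block, and 0.174 without it). Mest, a paternally expressed gene of mesoderm, read 8.43, 7.04 and 7.08 at 0 h and 10.24, 9.53 and 9.76 at 48 h, a rise of 2.32 ± 0.38 (adjusted p = 2.36e-04, and 0.0906 without experiment 3) after 1.46 ± 0.38 at 6 h and 1.64 ± 0.38 at 24 h, calls that were kept without experiment 1 alone. Dcn, for the matrix proteoglycan decorin, rose by 0.91 ± 0.24 at 48 h (adjusted p = 0.0185). Plagl1, a zinc finger factor that regulates a network of imprinted genes, rose by 1.12 ± 0.34 (adjusted p = 0.0453). Both calls were lost without experiment 2 (adjusted p = 0.196 and 0.185) or experiment 3 (0.390 and 0.428), and the change of Plagl1 was 1.65 without experiment 1, 0.71 without experiment 2 and 1.03 without experiment 3. Cdkn1c and Phlda2, which lie in the same imprinted cluster as Igf2, were among 5 genes below the limit.

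**Figure D4:**
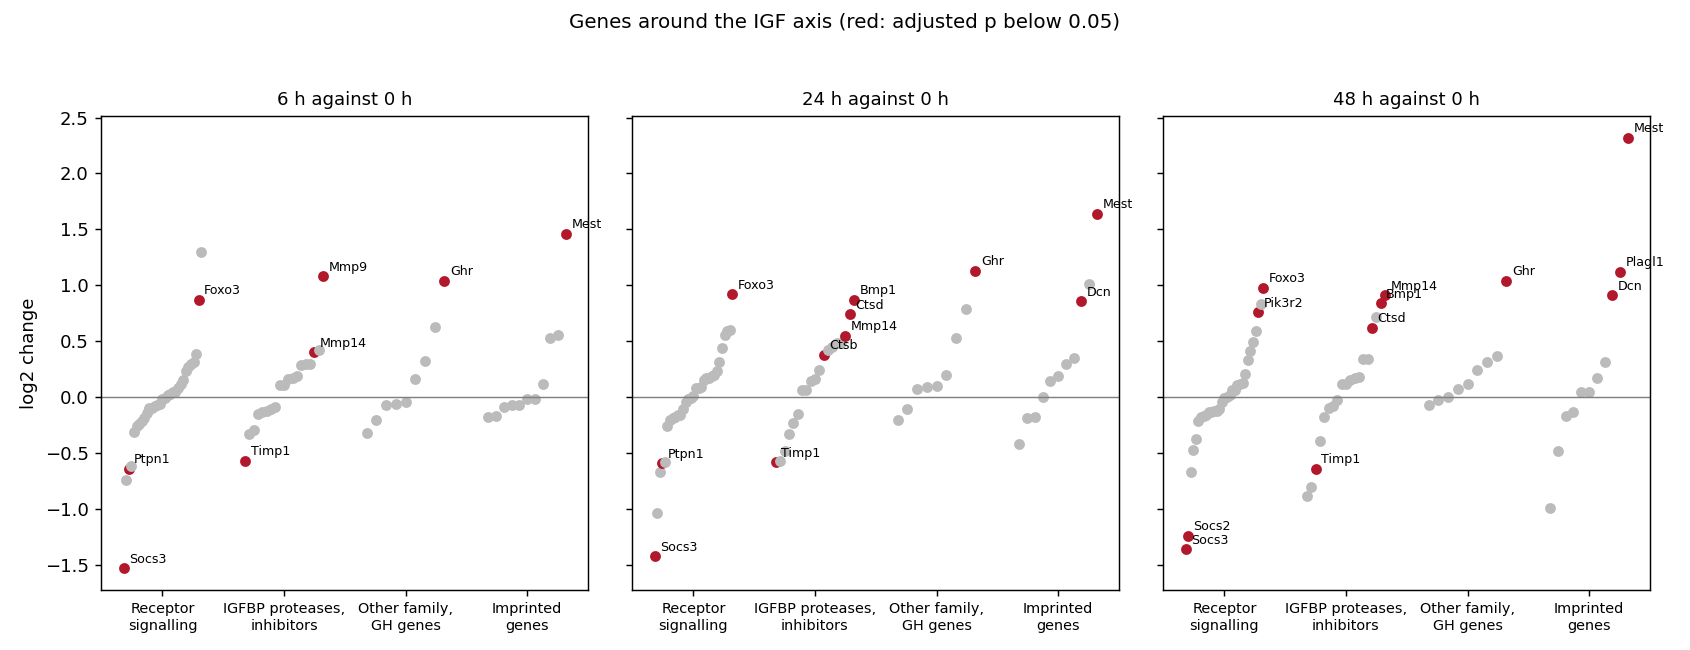
Log2 change from 0 h (vertical axis) at 6 h, 24 h and 48 h of the tested genes in 4 lists around the IGF axis, ordered by change within each list along the horizontal axis. Red points, which carry gene symbols, had an adjusted p below 0.05 in limma: Ghr, Foxo3 and Mest stand high and Socs3 low in all 3 panels.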

How the data were processed

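Per the labels' protocols, biotin-labelled cRNA of 27 flasks was hybridized to Affymetrix mouse U74v2 arrays, 1 array per sample. The deposited values are probe set intensities on a linear scale. Which software made them was not stated in any label or header used here. On every array the mean without the top and bottom 2% was 500.3, that is, the deposited arrays share a common level. The number of arrays limits the precision, and signal detection calls were not used here.

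A pseudocount of 12.1, the 10th percentile of all values, was added before taking log2. The array medians spread by 0.25, above a limit of 0.2, and the values were quantile normalized. The 66 control probe sets and, of the rest, all whose mean log2 value fell under the 40th percentile were left out, which kept 7453. Gene symbols came from the platform annotation, and names held by probe sets with several symbols were not used. A list gene was read from the probe set with its highest mean.

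Tests used limma 3.58.1 (R 4.3.3), where eBayes used an intensity trend, with Benjamini-Hochberg adjusted p-values called below 0.05. One fit of the 9 time means on all arrays gave the contrasts and the test over time. On the 24 arrays from 6 h to 48 h, a linear term and a 24 h cosine and sine pair gave trend and rhythm. The experiment number was left out of these fits and added as a block in others. It pairs the samples: deviations from the time means correlated between arrays of 1 experiment in every pair, with r from 0.426 to 0.642, 0.349 to 0.599 and 0.135 to 0.482 in experiments 1 to 3. The code was tested on simulated data.

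Members and lists were chosen with earlier results of these data known. Every member probe set is described. From each list up to 4 called genes with the largest change were named per comparison. Ctsb and the genes called with the block alone were named after their values were seen, as were the genes said to lie below the limit. The 3 genes with the most similar course were named for members that passed the test over time. Promoter windows came from a RefSeq table (build GRCm38.p6), where all 10 member symbols matched. Alternatives changed scaling, pseudocount, filter, variance model, block, replicates and arrays; those run on the list genes were chosen after seeing the data.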

Additional observations from a re-analysis of the deposited data

How the results depend on the processing

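Of 78 counts of called members under other settings 65 stayed within 1.5 times the count given. The count over time was 2. It was 1 after centring the arrays on their medians, with no filter, with eBayes without the intensity trend and without the experiment 1 arrays at 18 h and 30 h, and from 0 to 2 when 1 experiment was left out. In these cases Igf2 kept its call except without experiment 3, and Igf2r had an adjusted p = 0.0732, 0.0548, 0.0759 and 0.0560 at the first 4 settings. With the replicate block the count at 6 h was 2 in place of 0, and that along the trend 2 in place of 1. The trend count was 0 with centred arrays and from 0 to 2 when 1 experiment was left out. At 24 h the count of 3 became 1 to 2. The block changed no further count by more than 1.5 times. At 48 h the call of Igf1r was also lost with centred arrays (adjusted p = 0.0818), a pseudocount of 50 (0.0512), no filter (0.0758) and eBayes without the intensity trend (0.0627).

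All values that changed sign belonged to comparisons without a call. With centred arrays the trend of the brighter Igf1 probe set was −0.02. Leaving out 1 experiment gave Igf1 −0.18 to 0.05 at 6 h and a trend of −0.07 to 0.08; Igf2r −0.04 to 0.08 for 48 h against 24 h and a trend of −0.01 to 0.11; and Igfbp2 −0.06 to 0.26 at 24 h and −0.46 to 0.19 at 48 h. The second Igfbp4 probe set gave −0.02 to 0.47 at 6 h, −0.45 to 0.17 at 24 h, −0.01 to 0.31 at 48 h, −0.18 to 0.76 for 48 h against 24 h and a trend of −0.24 to 0.11. Igfbp6 gave −0.32 to 0.18 at 48 h and 0 to 0.31 for 48 h against 24 h. Among the changes and trends of the list genes, the calls of Mmp14 and Mmp9 at 6 h, Ptpn1 and Ctsb at 24 h, Bmp1 at 24 h and 48 h and Plagl1 at 48 h and along the trend were also lost under at least 2 settings other than a left-out experiment. Among such settings, centred arrays alone ended the calls of Ptpn1 at 6 h and of Mmp14 at 24 h and along the trend. No filter alone ended that of Dcn at 24 h. These calls of Mmp14 were also lost without experiment 2 (adjusted p = 0.236 and 0.0640) or 3 (0.0949 and 0.0561). The call of Dcn at 24 h was also lost without experiment 2 (0.315) or 3 (0.401). Why these calls changed was not tested.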

Other observations

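The 3 experiments differed in the level of some members at nearly every time. The brighter Igf1 probe set ran from 9.26 to 9.91 in experiment 1, from 10.17 to 10.74 in experiment 2 and from 9.59 to 10.39 in experiment 3, so that experiments 1 and 2 did not overlap over their 9 arrays each. Igf1r had a median of 9.38, 9.62 and 10.29 in experiments 1, 2 and 3. The second Igfbp4 probe set had a median of 8.04 in experiment 1 against 8.94 and 8.70, while the Igfbp4 probe set that rose had medians of 10.16, 10.12 and 10.03. Igf2 had medians of 14.73, 14.60 and 14.88 and was lowest in experiment 2 at 0 h. The 9 arrays of an experiment share their cells and are not replicates of it, so no test was made of these levels.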
